A study of Mus musculus with 48 samples.

Results

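A set of 80 cDNA clones gave, on average over arrays, a lower signal in HD cells than in LD cells in every one of 12 drug and time conditions. This holds for the ratio as it was read here, and its sign is not settled, as described below. HD cells are a clone of the murine erythroleukemia (MEL) line T-3-Cl-2-0.fl that differentiates readily when induced, and LD cells are a clone of the same line that does so poorly. The members were chosen from the measured ratios: the condition value of log2(HD/LD) had to lie below 0 in all 12 conditions, and the mean of the 12 values had to be at most -0.25. This held for 80 of the 18494 clones with a value in all 12 conditions. Of all these clones, 115 lay below 0 in all 12 conditions and 156 had a mean of at most -0.25, while the mirrored rule above 0 chose 202 clones.

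Both cell clones received one of 3 drugs, namely dimethyl sulfoxide (DMSO) at 1%, hexamethylene bisacetamide (HMBA) at 3 mM, or trichostatin A (TSA) at 15 nM, for 6, 12, 24 or 36 h. For each of the 12 conditions, RNA of HD cells (target) and RNA of LD cells (control) was put together on 4 technical arrays, which makes 48 arrays. Each kind of cell is 1 clone, each drug was given at 1 dose, and untreated cells were not analysed here. The p-values below therefore measure the spread between conditions, not between cultures or cell clones.

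MEL cells are red cell precursors held at an immature stage by transformation. DMSO and HMBA are classical inducers that bring such cells to make haemoglobin and to stop dividing, and TSA inhibits histone deacetylases, enzymes that remove acetyl groups from histones and so take part in keeping genes silent. The clones are known here only by their identifiers, which begin with H3 or H4 and give a plate and a well. Their genes and sequences were not analysed here, so no role is given to any clone, and several clones may stand for 1 gene. For the same reason the labelled cell type could not be checked against erythroid markers.

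The sign of the ratio, and with it which line is lower, is not settled. Per the labels HD cells carry the dye Cy3 on all arrays, yet arrays 3 and 4 list their channels in the opposite order, and dye swaps are mentioned in the design. Before normalisation, ratios of arrays 1 and 2 correlated negatively with those of arrays 3 and 4 across clones, with mean r between -0.82 and -0.38 by condition, and after loess normalisation this r lay between -0.52 and 0.02. On each array the ratio of target to control was read as HD over LD, because the columns are named by sample and not by dye, and HD and LD below are meant in this sense. With arrays 3 and 4 turned, the median of the members' means was 0.008, with 41 members above 0 and 39 below, against -0.41 as kept. The rule chose clones low in the mean of both array pairs as kept. A turned mean near 0 therefore partly follows from the choice and does not decide the sign. Under that reading the rule chose 1624 clones, of which 2 are among the 80.

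The members' means of log2(HD/LD) ran from -1.92 to -0.25 with a median of -0.41, where the median of all 18494 clones was -0.007. Of the 80, 32 had a mean of at most -0.5 and 11 a mean of at most -1, which is at least 2-fold lower in HD cells. These values chose the members and are given as a description. Limma called all 80 lower over the 12 conditions at an adjusted p under 0.05, a call made for 1.79% of all clones, and nothing is read from it since the rule used the same contrast. Arrays 1 and 2 alone put 79 members below 0, and arrays 3 and 4 alone put 78 there. Both pairs of arrays lay below 0 in all 12 conditions for 21 members, and for 21 of all 18494 clones. On every array that listed them 15 members were below 0, and on at least 90% of their arrays 40 were. The rule averaged these same arrays, so the counts by array partly follow from the choice and are no separate check.

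H4016F12 had the lowest mean, -1.92, and was below 0 on all 48 arrays. Its condition values under DMSO were -1.95, -1.42, -1.71 and -1.76 at 6, 12, 24 and 36 h. Under HMBA they were -1.86, -2.22, -1.89 and -2.996, and under TSA -2.25, -1.97, -1.85 and -1.18. The lowest of the 12 fell under HMBA at 36 h and the highest under TSA at the same time. The 4 arrays under HMBA at 36 h read -2.56, -2.89, -2.99 and -3.55, and those under TSA at 36 h read -1.06, -1.04, -1.54 and -1.08, so that the arrays of these 2 conditions did not overlap.

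H3038C06, with a mean of -1.24, showed a different course. With DMSO its values were -1.06, -1.41, -1.35 and -2.09, with HMBA -1.24, -0.93, -1.26 and -2.03, and with TSA -0.69, -0.64, -1.05 and -1.13. Both late DMSO and late HMBA stood apart from the rest, and the 2 early TSA times were nearest to 0. H3078E08, with a mean of -1.20, followed it closely, with r = 0.99 over the 12 conditions. H4070E06, also with a mean of -1.20, reached -2.19 under DMSO at 36 h and -2.26 under HMBA at 36 h but only -0.78 under TSA at 36 h.

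H3049A07, H3052F12, H3082E05, H3036G10, H3033B07, H3062A11 and H4016D11 had means between -1.19 and -1.04. In H3049A07 the value moved from -0.90 to -1.59 under DMSO between 6 and 36 h, from -1.13 to -1.93 under HMBA and from -0.65 to -1.50 under TSA. The 36 h value was the lowest of its time course under all 3 drugs. H3052F12 went the other way between drugs: its DMSO values of -0.97, -0.46, -0.55 and -1.05 included the 3 nearest to 0 of its 12. H3061H10, H3049A09, H4074B05, H3073G11, H3104H09 and H3078A01 had means between -0.97 and -0.90, and H3046C10, H4015F08 and H4046D12 between -0.73 and -0.72. H3046C10 ranged from -0.08 under DMSO at 24 h to -1.02 under TSA at 12 h.

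**Figure D1:**
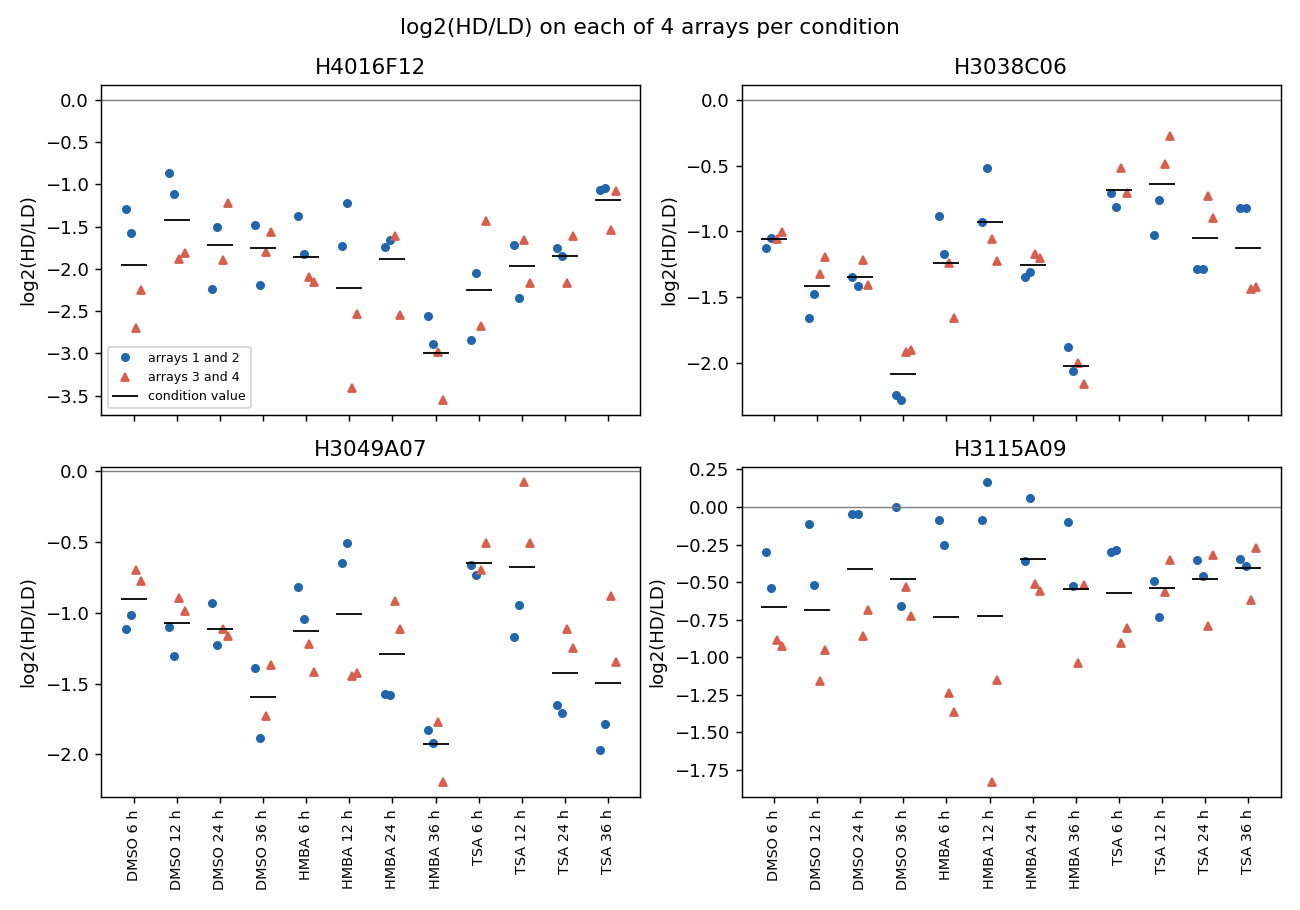
Log2(HD/LD) (vertical axis) of 4 member clones on each of the 4 arrays per condition (horizontal axis, drug and time), with arrays 1 and 2 as circles, arrays 3 and 4 as triangles and the condition value as a bar. H4016F12, H3038C06 and H3049A07 lie below 0 on all arrays, while in H3115A09 arrays 3 and 4 lie mostly below arrays 1 and 2, some of which reach 0.

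At the threshold itself, H4009D09 (mean -0.257), H3148E08 (-0.257) and H4005D06 (-0.25) were just inside. H4024G04 (-0.241), H4070B01 (-0.241) and H3125E05 (-0.236) were below 0 in all 12 conditions and just outside, as were 32 others. A further 31 clones had a mean of at most -0.25 but 1 condition above 0. The lowest of these were H4040B02, with a mean of -0.50 and 0.23 under DMSO at 24 h, H4038E06, with -0.47 and 0.10 in the same condition, and H3134E06, with -0.46 and 0.09 under TSA at 12 h. These are lower on average than most members.

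The size of the difference was not constant over conditions. The median of the 80 condition values was -0.36, -0.35, -0.33 and -0.60 at 6, 12, 24 and 36 h of DMSO, -0.51, -0.46, -0.34 and -0.69 at the same times of HMBA, and -0.44, -0.46, -0.52 and -0.48 with TSA. Under DMSO and HMBA the 36 h median was the lowest of its course, and under TSA the 4 medians lay close together. The lowest value was that under HMBA at 36 h for 37 members, against 5.11% of all clones. At 36 h under any drug 53 members had it, against 24.6%. Under HMBA at 36 h, 25 members were at least 2-fold lower in HD cells, of 29 clones in all at that size. The rule used these same ratios, which favours such clones as members, so the counts are a description only. With arrays 3 and 4 turned, the lowest value was that under HMBA at 36 h for 2 members, against 5.04% of all clones. At 36 h under any drug 10 members then had it, against 22.1%. In this reading no member was at least 2-fold lower under HMBA at 36 h, of 96 clones in all, and the members' median there was 0.06. The rule used the ratios as kept, so turned values near 0 partly follow from the choice of members.

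**Figure D2:**
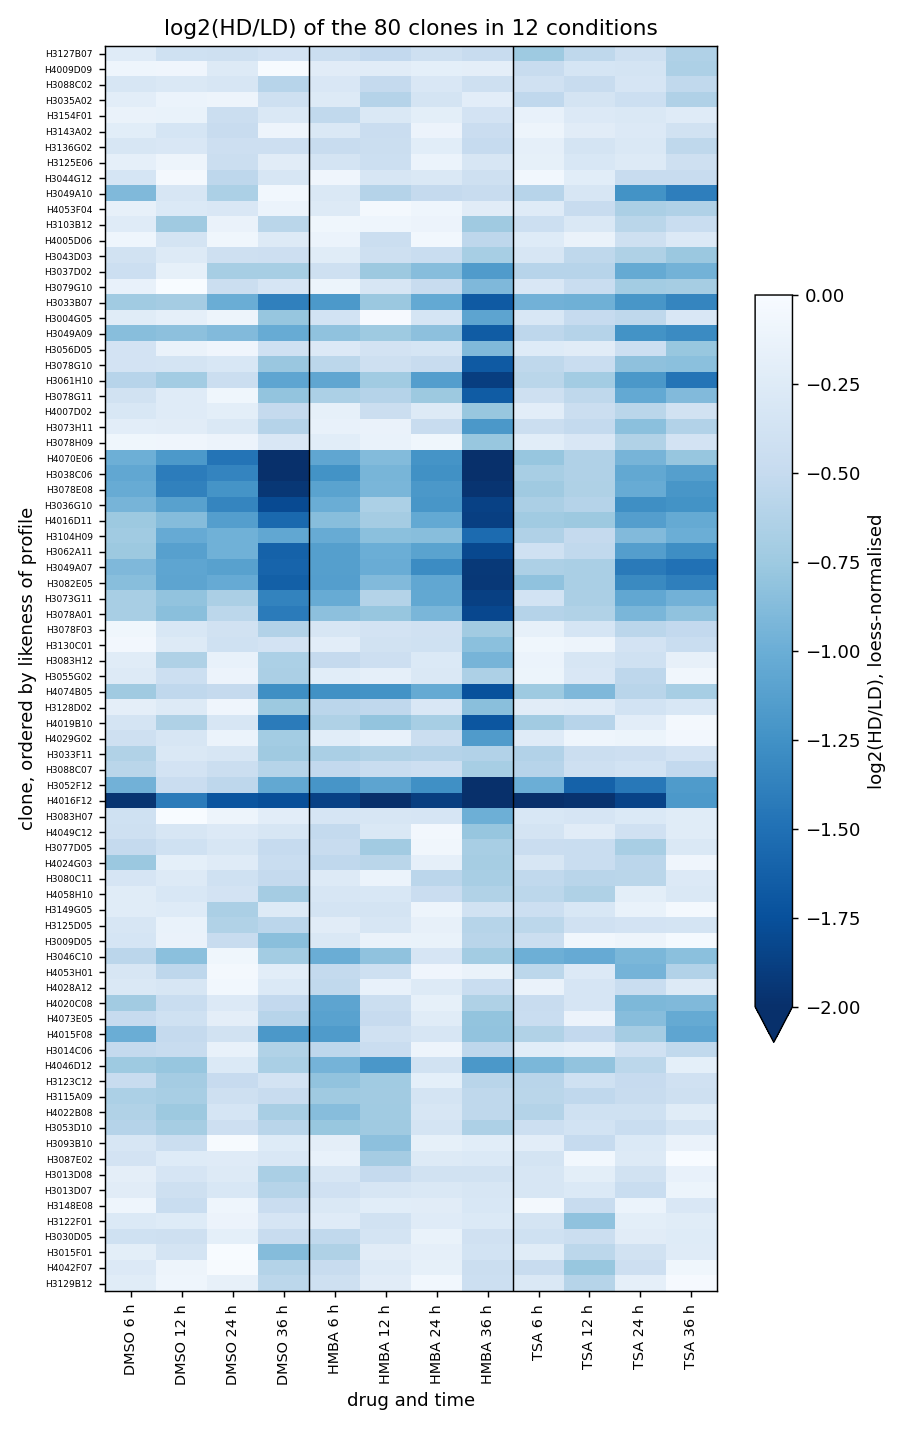
Log2(HD/LD) of the 80 clones (rows, ordered by the likeness of their profiles) in the 12 conditions (columns, 3 drugs at 4 times), on a colour scale from 0 (white) to -2 or lower (dark blue). The column of HMBA at 36 h is the darkest, with a median of -0.69.

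The change of the ratio between 6 and 36 h was fitted with drug as an additive term. It was below 0 for 63 of the 80 members, against 51.4% of all clones. Its median was -0.15 over the members and -0.004 over all clones. Limma called 1 member, H3049A07, at -0.78 ± 0.14 (SE, 12 conditions) and an adjusted p of 0.049. It was the only clone called lower of 18494, which is 0.00541%, and 27 clones (0.146%) were called higher. H3062A11, at -0.80 with an adjusted p of 0.053, and H4070E06, also at -0.80 with 0.24, were not called. At the other end H4022B08 (0.21), H4046D12 (0.19) and H3115A09 (0.18) were not called either. The members had to lie below 0 in all conditions, which limits how far their ratio can move upward. With the replicate number as a block, in a fit that takes the 48 technical arrays as units, 17 members were called, all lower, of 19 clones called lower (0.103%). The rule used these same ratios, which favours members among clones called lower, so this count is a description only. With arrays 3 and 4 turned no member was called and the median change was 0.002. The count of called members was 0 without replicate 1, 3 or 4 and 3 without replicate 2. Of single conditions, the absence of HMBA at 24 h gave 2, of TSA at 24 h 4, of TSA at 36 h 7, and of any other 0.

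No member, and no clone at all (0%), was called for a difference of the ratio between drugs by limma. At an unadjusted p under 0.05, HMBA minus DMSO had 8 of the 80 members lower and 0 higher, beside 453 and 295 of all 18494 clones. TSA minus DMSO had 5 of the 80 members higher and 9 lower, beside 1115 and 1073 of the 18494. The 5 higher are near the share of all clones. TSA minus HMBA had 12 of the 80 higher and 2 lower, beside 782 and 728 of the 18494. The highest TSA minus DMSO values were 0.68 in H4070E06, with a 95% interval from 0.30 to 1.05, 0.60 in H3038C06 and 0.49 in H3078E08, all with an adjusted p of 0.28. The lowest were -0.55 in H3052F12, -0.40 in H3049A10 and -0.39 in H3046C10. For HMBA minus DMSO the range ran from -0.63 in H3052F12, -0.56 in H4074B05 and -0.54 in H3078G11 to 0.17 in H3009D05 and H3103B12 and 0.11 in H3036G10. For TSA minus HMBA it ran from -0.41 in H3049A10, -0.35 in H4053F04 and -0.31 in H4053H01 to 0.59 in H4074B05 and 0.57 in H4019B10 and H4070E06. With the replicate block, which takes technical arrays as units, 2 members were called higher for TSA minus DMSO, the only clones called in that direction (0.0108%). The rule used these same ratios, which favours clones with large ratios, so the counts of members for the drug differences are a description only.

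The rule did not use how levels differed between drugs within a line. Signals of most members were higher under TSA than under DMSO, in HD and in LD cells alike. In HD cells, 48 of the 80 were called higher and 1 lower, where 10.6% of all clones were called higher and 12.2% lower. In LD cells, 49 were called higher and none lower, against 8.97% and 10.6% of all clones, and with loess within arrays alone this count was 32. The median difference TSA minus DMSO, over 4 times, was 0.81 on the log2 intensity scale in both lines, and for all clones it was -0.007 in HD and -0.02 in LD cells.

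In both lines, 47 members were called higher, where 7.51% of all clones were. At least 2-fold in both were 31 of them, against 1.38% of all clones, and 29 were called in neither line, against 73.7%. All 11 members with a mean ratio of at most -1 were among the 47. HD and LD levels come from the same arrays, so the lines are not independent checks of each other. Since no untreated cells were analysed here, a rise under TSA and a fall under DMSO cannot be told apart.

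H3073H11 had the largest difference. Its log2 intensity in HD cells was 6.64, 6.55, 6.31 and 6.11 under DMSO at 6, 12, 24 and 36 h and 9.04, 10.51, 10.98 and 11.88 under TSA. In LD cells it was 6.85, 6.77, 6.59 and 6.72 under DMSO and 9.48, 11.02, 11.82 and 12.50 under TSA. The TSA values lay above all DMSO values and climbed at each time, while the DMSO values stayed level or declined. The mean difference was 4.2 ± 0.35 (SE) on the log2 scale in HD cells, with an adjusted p of 2.8e-07 by limma. In LD cells it was 4.47 ± 0.35, with an adjusted p of 1.4e-07. Its DMSO signal lay under the lower quartile of all clones' mean log2 intensity, 7.55, and how far it stood above background is unknown, so the size of the fold is uncertain. With an offset of 50 added to every intensity the differences were 3.51 and 3.87.

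H3036G10 read 8.38, 7.57, 8.06 and 7.57 under DMSO and 9.95, 10.74, 10.85 and 10.69 under TSA in HD cells. In LD cells it read 9.33, 8.69, 9.40 and 9.36 under DMSO and 10.62, 11.35, 12.12 and 11.92 under TSA. Its differences were 2.66 ± 0.23 in HD and 2.31 ± 0.23 in LD cells. H4070E06 followed with 2.45 and 1.78, H3082E05 with 2.42 and 2.32, H3073G11 with 2.38 and 2.27, and H3049A07 with 2.17 and 2.06, in HD and LD cells in turn. H3104H09 stood at 2.13 and 1.94 and H3033F11 at 1.69 and 1.67. H3078E08 (2.03) and H3009D05 (2.04) in HD cells, and H3033B07 (2.28), H3078G11 (2.03) and H3037D02 (1.82) in LD cells, were also among the 10 with the smallest adjusted p of their line.

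H4016F12, the clone with the lowest ratio, also had a higher signal under TSA, by 1.76 in HD and 1.86 in LD cells on the log2 scale, with HD signals under DMSO mostly below the same quartile. In HD cells it read 5.90, 6.51, 6.52 and 7.99 under DMSO and 6.86, 8.03, 8.80 and 10.26 under TSA, so that the 2 courses overlapped while both climbed. The only member called lower was H4073E05, at -0.80 ± 0.24 in HD cells with an adjusted p of 0.019, and at -0.60 with an adjusted p of 0.082 in LD cells. H4028A12 (-0.54 and -0.48), H4053H01 (-0.48 in HD cells) and H3123C12 (-0.45 in LD cells) were the next lowest and were not called.

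For 41 members in HD cells and for 41 in LD cells, all 4 TSA times lay above all 4 DMSO times, where this held for 9.53% and 7.66% of all clones. At 6 h the median difference was already 0.52 in HD and 0.58 in LD cells, and 28 and 27 members were at least 2-fold higher, where 3.75% and 4.22% of all clones were. At 36 h the medians were 1.07 and 1.02, and 43 and 40 members were at least 2-fold higher, where 5.56% and 4.22% of all clones were. The differences at 12 and 24 h lay between, with medians of 0.74 and 0.68 in HD cells and 0.77 and 0.91 in LD cells.

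**Figure D3:**
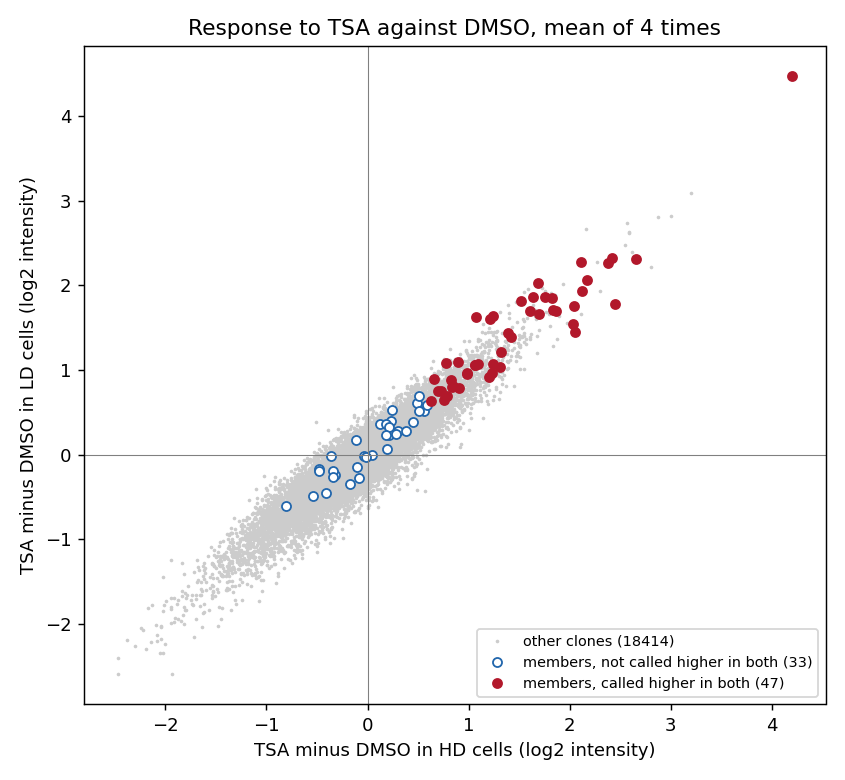
TSA minus DMSO, as the mean over 4 times on the log2 intensity scale, in HD cells (horizontal axis) and LD cells (vertical axis), with members called higher in both lines as filled circles, other members as open circles and the other clones as grey points. The 47 filled circles lie in the upper right, with H3073H11 apart at 4.2 and 4.47.

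Fewer members were called under HMBA than under TSA, each against DMSO. In HD cells 16 members were called higher and 2 lower, against 4.35% and 12.8% of all clones, and in LD cells 17 were called higher and 2 lower, against 2.98% and 9.63%. Both lines shared 14 of those called higher, against 2.62% of all clones, and 11 were called higher under both HMBA and TSA in both lines, against 1.34%. The medians were 0.17 in HD and 0.29 in LD cells, and for all clones -0.05 and -0.07. All 4 HMBA times lay above all 4 DMSO times for 15 members in HD and 11 in LD cells, against 4.62% and 3.38% of all clones. Calls in either direction, 18 in HD and 19 in LD cells, dropped to 8 and 6 without DMSO at 12 h, to 7 and 12 without HMBA at 24 h, to 10 and 11 without DMSO at 24 h, to 10 and 10 without DMSO at 36 h, and to 11 in HD cells without HMBA at 12 h. They were 9 and 10 without replicate 2, and 8 and 8 without replicate 4. HMBA and TSA share the DMSO arrays as their baseline, so their counts are not independent.

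H3013D07 and H3136G02 were the highest. H3013D07 read 10.63, 10.38, 10.82 and 10.53 under DMSO and 11.89, 11.46, 12.06 and 12.18 under HMBA in HD cells, with no overlap. Its difference was 1.31 ± 0.20 in HD and 1.25 ± 0.20 in LD cells, with adjusted p-values of 0.00040 and 0.00094 by limma. H3136G02 stood at 1.29 and 1.34, H3009D05 at 1.23 and 1.06, and H3013D08 at 0.94 and 0.97. H3043D03 (0.64 and 0.72), H3033F11 (0.58 and 0.72), H3143A02 (0.75 and 0.80) and H3036G10 (0.91 and 0.79) were called higher in both lines too, and H3037D02 (0.83), H3035A02 (0.74) and H3049A07 (0.86) were among the 10 smallest adjusted p-values in LD cells. H4016F12, at 1.23 in LD cells with an adjusted p of 0.053 by limma, lay above H3009D05 there but was not called.

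Against this, H4020C08 was lower under HMBA in both lines, by -1.53 ± 0.27 in HD and -1.44 ± 0.27 in LD cells. In HD cells it read 8.32, 8.04, 7.59 and 7.57 under DMSO and 6.93, 6.41, 5.97 and 6.10 under HMBA. All 4 HMBA values lay under all 4 DMSO values. H3061H10 was called lower in HD cells, at -1.19 ± 0.27, and stood at -0.69 with an adjusted p of 0.097 in LD cells. H4053F04 was called lower in LD cells, at -0.69. H3123C12, at -0.64 in HD cells, was not called.

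**Figure D4:**
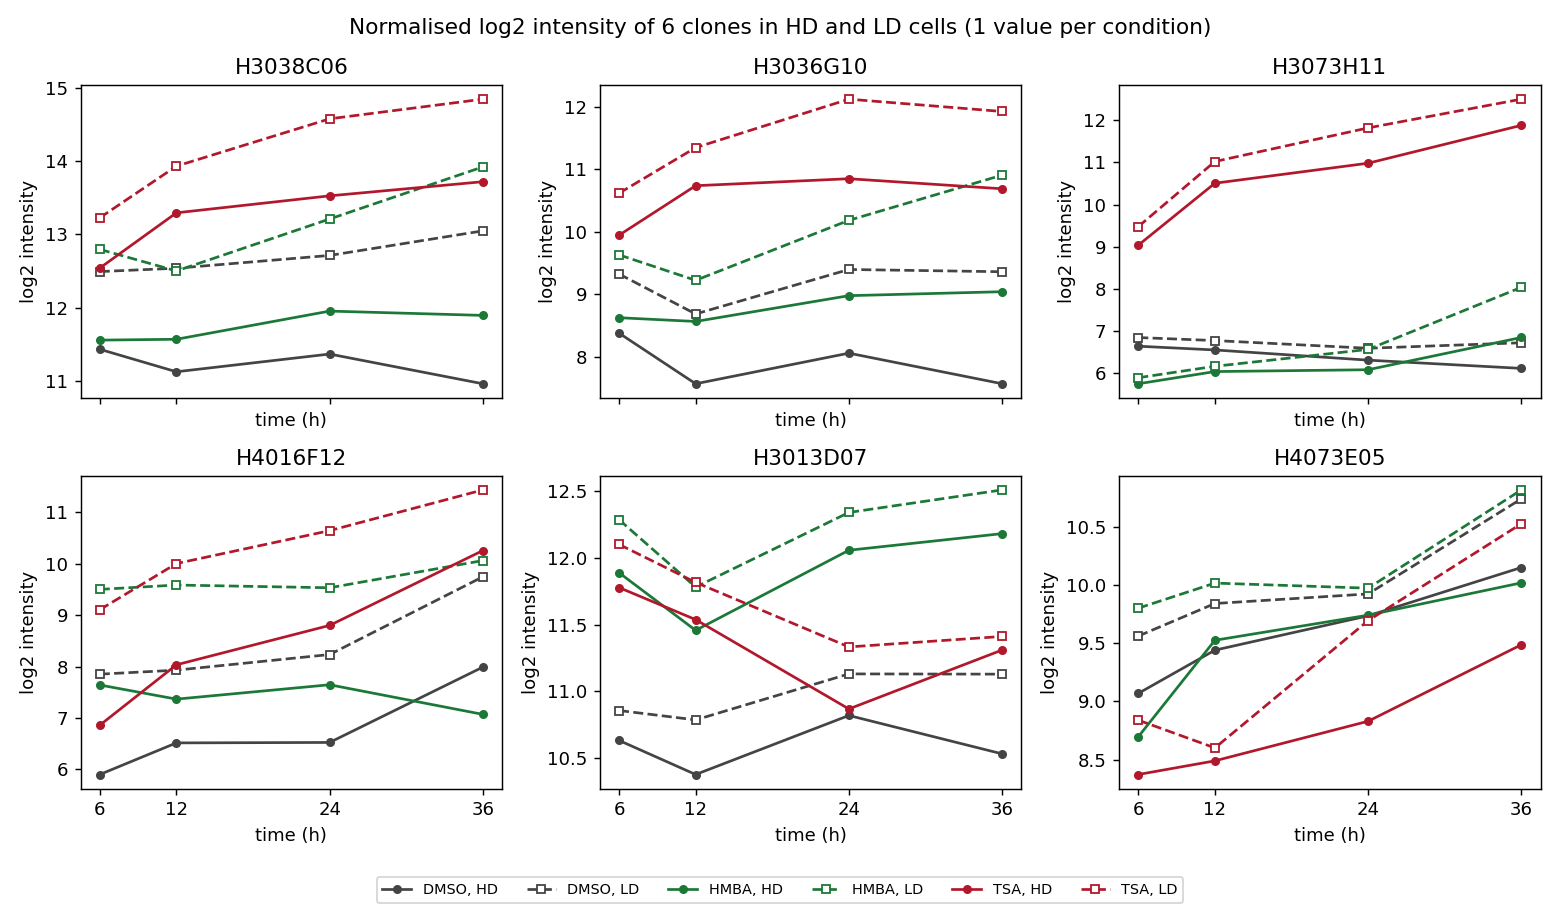
Normalised log2 intensity (vertical axis) of 6 member clones against time in h (horizontal axis) in HD cells (solid lines, filled circles) and LD cells (dashed lines, open squares) under DMSO (grey), HMBA (green) and TSA (red), with 1 value per condition. The LD line lies above the HD line of the same drug at every time, as the choice of members requires, and in H3073H11 both TSA lines lie above all DMSO and HMBA values.

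Between 6 and 36 h, with drug as an additive term, 7 members were called higher and 1 lower in HD cells, against 3.9% and 3.21% of all clones. In LD cells, 20 were called higher and 1 lower, against 2.04% and 1.69%. The median change was 0.33 in HD and 0.52 in LD cells, against -0.03 in both for all clones, and the change was larger in LD cells for 63 of 80 members. These are the 63 whose ratio declined, beside 51.4% of all clones, so this is the same observation seen in levels. Called higher in LD and not called higher in HD cells were 17 members, against 0.287% of all clones, but of these H3049A07 alone passed the test of the difference.

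H4046D12 changed most in HD cells: it read 6.56 and 8.26 under DMSO at 6 and 36 h, 6.55 and 8.54 under HMBA, and 7.51 and 9.37 under TSA. Its change was 1.85 ± 0.27 in HD and 1.66 ± 0.27 in LD cells, with adjusted p-values of 0.0010 and 0.0089. H4019B10 (1.25 and 1.74) and H4073E05 (1.17 and 1.29) were also called higher in both lines. H4016F12 (1.64), H3149G05 (0.99), H3033F11 (0.70) and H4022B08 (0.69) were called higher in HD cells. In LD cells H3073H11 (1.68), H3073G11 (1.36), H3078A01 (1.35), H4070E06 (1.32), H3078G11 (1.29), H4016D11 (1.26), H3078G10 (1.18) and H3038C06 (1.10) were among those called. H3127B07 was called lower in both, at -0.74 and -0.72, while H4053F04 and H4020C08 were the next lowest and were not called.

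These counts, 8 in HD and 21 in LD cells in either direction, rest on few conditions. No member was called in either line without DMSO, 2 and 9 were called without TSA, and 5 in HD cells without HMBA. Of single conditions, the absence of DMSO at 6 h left 1 and 1, of TSA at 36 h 1 and 5, of DMSO at 36 h 4 and 2, of TSA at 6 h 4 and 6, and of DMSO at 12 h 4 and 10. Without HMBA at 6 h or at 24 h 4 and 13 were called, and without DMSO at 24 h 5 in HD cells. Of the arrays, the absence of replicate 2 left 2 and 1, of replicate 4 left 4 and 13, and of replicate 1 left 5 in HD cells. Turning arrays 3 and 4 gave 18 and 11.

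**Figure D5:**
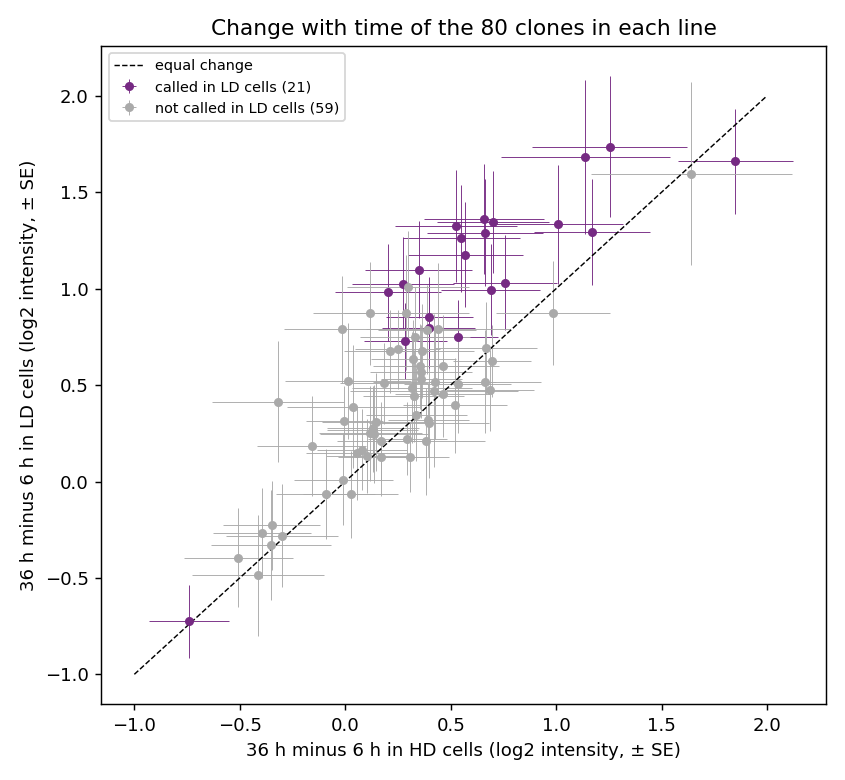
Change in log2 intensity from 6 to 36 h of the 80 clones in HD cells (horizontal axis) and LD cells (vertical axis), with standard errors as bars, the 21 clones called in LD cells in purple and a dashed line of equal change. For 63 clones the point lies above the dashed line.

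The profiles over conditions were partly shared. Pearson's r over the 12 ratios, described here without a test since the ratios of a condition share arrays, had a median of 0.25 over the 3160 pairs of members. It ran from -0.73 to 0.99, with 145 pairs at 0.8 or above and 738 below 0. Average linkage at r = 0.5, a setting chosen after the data were seen, put 32 members in the largest group. This group holds H3038C06, H4070E06, H3078E08, H3049A07 and 11 others of the 20 lowest, with a median r of 0.70 within it. At 6, 12, 24 and 36 h its median ratio was -0.43, -0.59, -0.45 and -0.91 with DMSO, -0.65, -0.64, -0.80 and -1.66 with HMBA, and -0.49, -0.54, -0.86 and -0.80 with TSA. For 29 of the 32 the lowest value was that under HMBA at 36 h, against 5.11% of all clones. The group was formed on these same ratios, so a shared lowest condition is a description of it. Of the 32, 29 were called higher under TSA in both lines, and of the other 48 members 18 were, beside the 7.51% of all clones given above.

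A different group held 5 members, H4046D12, H3115A09, H4022B08, H3053D10 and H3123C12. Their median ratios were lowest at 6 and 12 h of HMBA, at -0.81 and -0.73, and were -0.58 at 36 h of HMBA and -0.36 at 36 h of TSA. A further 5, H4015F08, H4020C08, H4073E05, H3014C06 and H4028A12, were lowest at 6 h of HMBA (-1.08) and at 36 h of TSA (-0.90). H4016F12 was grouped with H3052F12 and 4 others, and its most similar profile was that of H3083H07, with r = 0.85.

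The members came from 65 plates. Of the 80, 57.5% lay in part 1 of the arrays, where 55.0% of all clones did, and 26.25% had identifiers beginning with H4, where 26.6% of all clones did. Plate H3078 held 6 members, and the median of its other clones was 0.009. In 3 cases members sat in neighbouring wells of a row: H3013D07 and H3013D08 had r = 0.81 over conditions, H3078G10 and H3078G11 had 0.93, and H3049A09 and H3049A10 had 0.36. The 115 other clones in the wells beside a member had a median mean of -0.01, and 69 of them lay below 0, where 54.6% of all clones did. Whether neighbouring members share a transcript or carry-over between wells was not tested.

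The members' mean log2 intensity had a median of 9.59, against 9.09 for all clones. Of the members, 12 lay under the lower quartile of all clones and 19 over the upper quartile. The highest raw intensity of any member was 41337, in H3078A01. Without background values in the columns used, how far the dimmest members stood above background is unknown. In the authors' deposited table of log2 ratios, H4016F12 had a mean of -1.93 and H3038C06 a mean of -1.24. There H3079G10, H3015F01, H3083H07 and H3093B10 lay below 0 in only 11 of 12 conditions, and H4053F04 had a value in only 11. The other members lay below 0 in all 12.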

How the data were processed

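The deposited intensity values, 1 for the control and 1 for the target RNA of each cDNA clone, were used as they stand; per the file headers they carry no background or flag column. The authors' deposited log2 table, for which the sources used here give no normalization, served as an alternative: its columns had r between 0.987 and 0.999 with the ratios computed here. Between 19237 and 20581 clones were listed per array, and the number of arrays limits the precision.

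Log2(HD/LD) was normalised by loess on mean log2 intensity (span 0.3) within each part of each array. A condition value is the mean of the mean of arrays 1 and 2 and the mean of arrays 3 and 4, and a fit takes the 12 condition values, with missing arrays left out of their mean (12 members lack at least 1 array). Limma 3.58.1 under R 4.3.3 fitted drug and time as additive terms with 6 residual degrees of freedom. Levels within each line were log2 intensities of single channels, quantile-normalised between arrays on mean intensity and fitted with condition as a random block (correlation 0.80). P-values are two-sided and adjusted by Benjamini-Hochberg over all 18494 clones, with a threshold of 0.05. The fits were also run on simulated condition values. These do not copy the differences between the array pairs, so nothing is read from them about these arrays.

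Replicate numbers are shared by all conditions. Arrays with the same number in different conditions shared deviations from the mean of their condition (r across clones 0.22 to 0.64, median 0.41), but arrays of the other number of the same pair did so as well (median 0.40), so the numbers pair arrays by orientation. The fit with the replicate number as a block takes technical arrays as units. In it the replicate number is a fixed term and condition is a random block (correlation 0.08).

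The members and lists were chosen with earlier results of these data known. Named are the 20 lowest means, the 3 nearest the threshold on each side, the 3 lowest clones missing by 1 condition, the 3 highest and 3 lowest members of each contrast, and up to 10 called per contrast; the 3 highest of some contrasts coincide with those called. Members named for their profile group, plate or neighbouring well were chosen after their values were seen. Gene lists and cell type markers could not be applied to clones without gene names.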

Additional observations from a re-analysis of the deposited data

Results flagged for a closer look

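A few values stood apart. Under HMBA at 24 h, array 4 gave -2.54 for H4016F12, where the other 3 arrays lay between -1.74 and -1.62. Under TSA at 36 h, array 3 gave -1.54 for the same clone, where the others lay between -1.08 and -1.04. For H4070E06, array 3 under HMBA at 24 h gave -1.07 against -1.30 to -1.27, and array 2 under TSA at 24 h gave -1.17 against -0.87 to -0.85. Among the 4 DMSO times, the median of the members at 36 h, -0.60, lay apart from the other 3 medians of -0.36 to -0.33. Of 63 groups of 4 tested in this way, about 3.15 would be expected to show such a gap by chance (1 in 20). In H3049A07, log2(HD/LD) changed by -0.78 from 6 to 36 h, with an adjusted p of 0.049 by limma. The signal changes of 0.98 in LD and 0.20 in HD cells are the same difference seen in levels and no separate support. The rule used these same ratios. The call was lost with median centring, with arrays 3 and 4 turned, and without replicate 1, 3 or 4.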

How the results depend on the processing

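Under the 20 alternatives run, 33 to 51 members were called for TSA against DMSO in HD and 32 to 50 in LD cells. The 32, over 1.5 times under the count of 49, came from loess within arrays alone. Most other counts moved. The rule chose 32 members at a mean of at most -0.5, 15 when every array had to lie below 0, 1624 with arrays 3 and 4 turned, and 63 to 74 without 1 replicate. With arrays 3 and 4 turned, the members' median was 0.00802, and the means of H4016F12 (0.18), H3082E05 (0.046), H3036G10 (0.29), H3033B07 (0.19), H3062A11 (0.11), H3061H10 (0.018) and H4074B05 (0.20) lay above 0. For the change of the ratio from 6 to 36 h, 0 members were called with median centring or turned arrays, 4 in the authors' deposited table, 8 with an offset of 50, 8 without the dimmest 25%, 17 with the replicate block, and 0 to 7 when 1 replicate or condition was left out. For the drug differences of the ratio, the replicate block gave 2 members for TSA minus DMSO (0 without it) and 0 for the other 2 differences. Within lines, loess alone called 0 members in HD and 0 in LD cells for 36 against 6 h, and 11 and 9 for HMBA. With arrays 3 and 4 turned, these were 18 and 11 for time, and 12 in LD cells for HMBA. Without DMSO, 0 and 0 were called for time, without TSA 2 and 9, and without HMBA 5 in HD cells. Leaving out 1 replicate or condition gave 1 to 11 and 1 to 23 for time, and 7 to 19 and 6 to 22 for HMBA. Leaving out single conditions within lines was added after seeing the data. The cause of these moves was not tested. A block for slide or scan was not run, since the columns used name neither.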
